A study of Capra hircus with 36 samples.

Results

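MicroRNA (miRNA) profiles of the lung were compared between high-altitude and low-altitude goats. The libraries were chosen by their tissue label, which gave 6 lung libraries of the 36 in the series, and all 1391 listed miRNAs entered the comparison. The high-altitude group held 3 adult female Tibetan Goats living at 3000 m and the low-altitude group held 3 adult female Chuandong White Goats living at 600 m, with an age label of over 3 years in both. Each library came from 1 goat, and the same 6 goats also gave 5 other tissues. The comparison asks which lung miRNAs differ between animals living with low and with normal oxygen supply. The groups also differ in breed and in rearing, the Tibetan Goats being herded on pasture and the Chuandong White Goats kept at home, so altitude, breed and rearing cannot be told apart.

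MiRNAs are short RNAs that guide Argonaute proteins to messenger RNAs, mostly through pairing of bases 2 to 8, the seed, and so lower translation and stability of their targets. A lung sample mixes ciliated and other airway epithelium, alveolar epithelium, endothelium, smooth muscle, fibroblasts and leukocytes, and many miRNAs are largely made by one of these cell types. In low oxygen the pulmonary arteries constrict and their walls can thicken, and hypoxia-inducible factors alter the transcription of several miRNA genes.

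The values were counts of reads per mature miRNA, expressed here as CPM, the counts scaled to the library total. The totals were 9653266, 10336998 and 10203269 in high-altitude replicates 1, 2 and 3 and 9686363, 10849570 and 10185270 in low-altitude replicates 1, 2 and 3, so that 3 counts, the floor used in place of 0 for a lower bound on a fold, equal 0.277 to 0.311 CPM. Of the 1391 miRNAs, 910 had a count in at least 1 lung library, 388 had counts in all 6, and 284 reached a mean of 10 CPM. These limits cover counting error only, since reads amplified by PCR are not independent molecules.

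The high-altitude libraries were less alike than the low-altitude ones. Over 252 miRNAs averaging 10 CPM or more, leaving out those that combined 0 with 100 or more counts within an altitude, the root mean square distance of a library from the mean of its altitude's remaining pair was 0.846, 1.45 and 1.27 in log2(CPM + 1) for high-altitude replicates 1, 2 and 3. It was 0.792, 1.08 and 0.762 for low-altitude replicates 1, 2 and 3. High-altitude replicate 2 stood farthest from its group, and its nearest library, by the correlation across these miRNAs (r = 0.947), was low-altitude replicate 1. The TMM scaling factors of edgeR, which correct for library composition, were 1.36 in high-altitude replicate 2 and 0.627 in high-altitude replicate 3, against 0.981 to 1.11 in the other 4 lung libraries.

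Marker miRNAs of airway cells were far above the other tissues in the libraries labelled lung. Those of ciliated epithelium (miR-34b, miR-34c and the miR-449 family) summed to a mean of 7184 CPM in lung and to between 6.95 and 34.1 CPM in the other 5 tissues. The epithelial miR-200 and miR-183 families with miR-203, miR-205 and miR-375 summed to 9346 CPM in lung, and kidney came next with 3918 CPM. Endothelial markers, mainly miR-126, summed to 21336 CPM in lung and 20024 CPM in liver, so they did not set lung apart. In lung, the listed arm of miR-375 was at 0 in all 6 libraries.

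No miRNA passed both thresholds for DE miRNAs, an adjusted p below 0.05 together with a log2 fold change of 1.5 or more in either direction, by edgeR's quasi-likelihood test over all 1391 miRNAs (0 called, 0%). At an unadjusted p under 0.05, 66 miRNAs were found (4.74%), of which 31 were higher (2.23%) and 35 were lower (2.52%) in high-altitude lung. Some miRNAs without a difference also reach such a p, whereas the 481 at 0 in all 6 lung libraries could not. With upper quartile scaling the split was 39 higher and 29 lower. The number of higher miRNAs was 51 without high-altitude replicate 3 and 17, 18 and 18 without low-altitude replicates 1, 2 and 3, and the number of lower miRNAs was 22 and 19 without low-altitude replicates 2 and 3. The number of DE miRNAs was 22 (1.58%) by DESeq2, 3 by edgeR's likelihood ratio test, 2 by its exact test and 4 in 1 fit over all 36 libraries. The exact test called miR-91-3p and miR-210-5p of the group without a miRBase match, the likelihood ratio test these and miR-542-3p, and the fit over all 36 libraries miR-9-5p, miR-542-3p, miR-424-5p and conserved miR-548q-1-5p. The number was 1 without high-altitude replicate 1, conserved miR-548q-3p, and 1 without high-altitude replicate 2, miR-200b-3p, each then at 0 in the remaining high-altitude libraries. Conserved miR-548q-3p, picked after its values were seen, had 211, 0 and 0 CPM at high altitude and 393, 404 and 539 CPM at low altitude, with adjusted p of 0.0156 without that library and 0.992 with all 6. In lung counts simulated with known changes, unchanged miRNAs were also called, 12 of 1191 by DESeq2 and 3 by edgeR's quasi-likelihood test. With zeros placed among these counts, the numbers were 7 and 0. Of the 22 called in lung, 14 were higher and 8 lower, and 11 both reached a mean of 10 CPM and had no overlap between altitudes. A count of 0 by the quasi-likelihood test does not show that no miRNA differed, and differences of single miRNAs are given as values.

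Among the 284 miRNAs averaging 10 CPM or more, 57 (20.1%) had no overlap between altitudes. In 15 of them (5.28%) every high-altitude library lay above every low-altitude one, and in 42 (14.8%) the order was the reverse. For a miRNA without an altitude difference, 1 of the 20 assignments of the 6 libraries puts every high-altitude library on top. The share of higher miRNAs was near this 1 in 20. The higher miRNAs numbered 27 without high-altitude replicate 2, 44 without high-altitude replicate 3 and 28 without low-altitude replicate 1, and the lower ones 119 without high-altitude replicate 2. They were 26 higher and 37 lower when CPM was scaled by TMM, and 14 of the 15 and 28 of the 42 had no overlap on both scales. Altitude took up 24.1% of the variance in log2(CPM + 1) of the 284 miRNAs (two-sided exact permutation test over 20 assignments of the 6 libraries, p = 0.2). The share is the same with the altitudes swapped, so the smallest p this test allows is 0.1. It was 38.7% without high-altitude replicate 2 and between 23.5% and 30.7% with any other library left out.

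**Figure D1:**
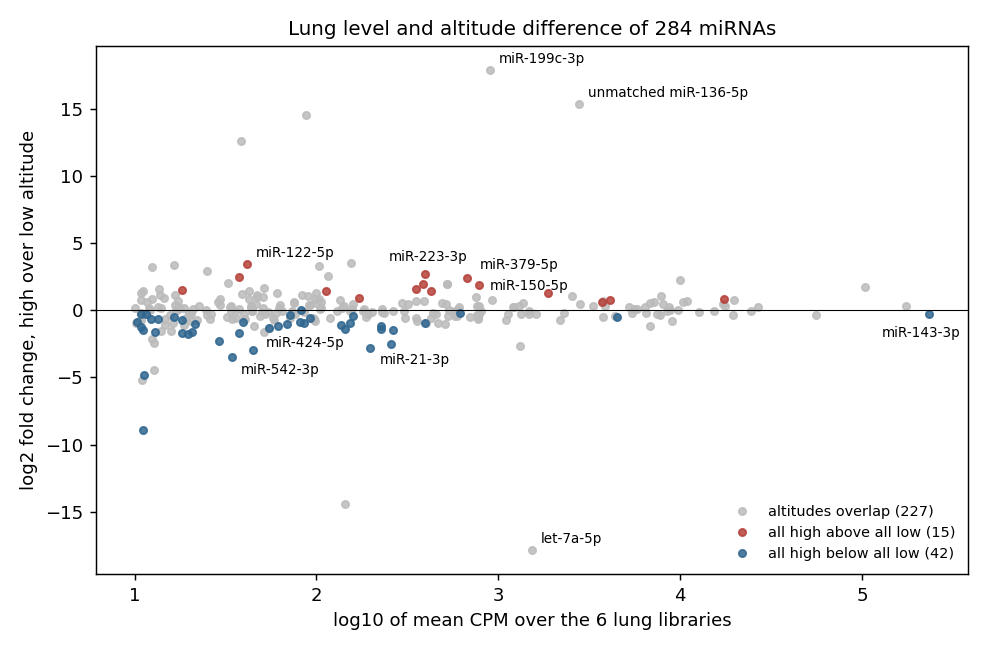
Each point is 1 of 284 miRNAs averaging 10 CPM or more in lung, with the log10 of its mean CPM on the x axis and its log2 fold change, high over low altitude, on the y axis. The points farthest from 0 are miR-199c-3p and let-7a-5p, each counted in 1 library and at 0 in the other 5, so that their fitted values are no measure of size, whereas most of the 15 red and 42 blue points, with no overlap between altitudes, lie nearer to 0.

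Among the 57 miRNAs with no overlap and a mean of at least 10 CPM, miR-542-3p and miR-424-5p had the smallest p by edgeR's quasi-likelihood test. Their genes lie with those of miR-450 and are transcribed together from the X chromosome in other mammals. miR-424 is induced in endothelial cells under low oxygen and restrains the growth of pulmonary artery cells. These 2 followed the naming rule, whereas the other members were picked after their values were seen, with no list fixed for the group, and are given as a description.

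miR-542-3p had 1.76, 12.6 and 2.74 CPM in high-altitude replicates 1, 2 and 3 and 54.6, 55.9 and 78.1 CPM in low-altitude replicates 1, 2 and 3. miR-424-5p had 4.56, 22.5 and 4.02 CPM in the high-altitude libraries and 69.4, 59.4 and 109 CPM in the low-altitude libraries. For both miRNAs every high-altitude library was low, with replicate 2 the highest of the 3, and the altitudes did not overlap. The log2 fold change of miR-542-3p was -3.51 ± 0.68 (SE), with an adjusted p of 0.757 by edgeR's quasi-likelihood test. That of miR-424-5p was -3.0 ± 0.62 (SE), with an adjusted p of 0.757 by the same test. Without high-altitude replicate 2 they were -4.26 and -3.74. The verdict on them depended on the test: over 22 settings the adjusted p of miR-542-3p ran from 0.000148 with DESeq2 to 1.0 with the replicate block, and miR-542-3p passed both thresholds in 3 of them. For miR-424-5p it ran from 0.000696 with DESeq2 to 1.0 with the replicate block, and 2 settings passed.

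Of the other members, miR-450-5p had 4.14, 19.1 and 6.47 CPM at high altitude and 24.3, 27.4 and 43.8 CPM at low altitude. miR-542-5p, the other arm of the miR-542 hairpin, had 0.518, 1.35 and 0.882 CPM at high altitude and 4.23, 4.33 and 6.58 CPM at low altitude. The high-altitude libraries lay below the low-altitude ones in both. Conserved miR-450b-3p, where "conserved" marks the study's class of miRNAs matched to other mammals, had 0.829, 2.32 and 2.55 CPM against 8.78, 13.9 and 13 CPM. Conserved miR-450b-5p, with a mean of 55 CPM the most abundant of the members named, overlapped between altitudes, since high-altitude replicate 2 had 69.7 CPM and low-altitude replicate 1 had 58.9 CPM, but did not with TMM-scaled CPM (51.4 and 58.8). The log2 fold changes of these 4 were -1.64, -2.27, -2.34 and -1.36, with -2.97 for conserved miR-450b-3p without high-altitude replicate 3 and -2.10 for conserved miR-450b-5p without high-altitude replicate 2. The last arms of the group, miR-424-3p and miR-450-3p, averaged 2.11 and 0.144 CPM.

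Markers of leukocytes and of epithelium supplied several of the higher miRNAs. miR-150-5p, made by mature lymphocytes, had 944, 1863 and 838 CPM at high altitude and 461, 338 and 233 CPM at low altitude. miR-223-3p, made by neutrophils and other myeloid cells, had 330, 1461 and 265 CPM at high altitude and 85.6, 60.9 and 161 CPM at low altitude. Neither overlapped between altitudes, and high-altitude replicate 2 was the highest library in both. The log2 fold changes were 1.90 ± 0.41 (SE) for miR-150-5p and 2.68 ± 0.62 (SE) for miR-223-3p, with adjusted p of 0.757 and 0.778 by edgeR's quasi-likelihood test, and that of miR-223-3p was 1.99 without high-altitude replicate 2. The other arm, miR-223-5p, had 32.8, 116 and 16.6 CPM against 25.6, 27.7 and 59.7 CPM and overlapped. Its log2 fold change was 0.47, or -0.23 without high-altitude replicate 2. In CPM, miR-223-3p was also higher with no overlap in the other 5 tissues, with some low-altitude libraries of kidney, liver and spleen at 0. For miR-150-5p this held in kidney and liver. The adjusted p of miR-150-5p ran from 0.000414 with DESeq2 to 1.0 with the replicate block, and that of miR-223-3p from 0.0056 to 1.0 with the same pair of settings. In bulk tissue, more cells of a type and more RNA per cell cannot be told apart.

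Of the 15 members of the leukocyte list, all with counts in lung, these 2 were at an unadjusted p under 0.05 by edgeR and both were higher, a share of 13.3% beside 2.23% of all 1391 miRNAs. That 2.23% and the 2.52% lower, also used for the lists below, include 481 miRNAs at 0 in all 6 lung libraries. Both are thus low as a background for lists with most members detected. Of the 10 members of the leukocyte list with a mean of at least 10 CPM, 8 had a log2 fold change above 0 and 2 below. The altitudes overlapped in 8, and 2 were higher with no overlap (20%, beside 5.28% of the 284 miRNAs). The median log2 fold change of these 10 was 0.40, beside -0.05 for the 284 miRNAs, and it was -0.01 with library size as the only scaling, a setting that also moved the median of the 284 to -0.19. Summed over the list, the libraries had 16309, 24194 and 21200 CPM at high altitude and 23307, 20912 and 17809 CPM at low altitude. These sums overlapped fully. Conserved miR-142-5p, the most abundant member, had 6166 to 10541 CPM at high altitude and 7957 to 10602 CPM at low altitude and overlapped as well. No member of the list was at 0 in all 6 libraries.

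Of the 22 epithelial miRNAs, 19 had counts in lung and 4 were at an unadjusted p under 0.05 by edgeR, all of them higher, which is 18.2% beside 2.23% of all miRNAs. Conserved miR-205-5p, found in basal cells of stratified epithelium, had 362, 854 and 577 CPM at high altitude and 171, 155 and 202 CPM at low altitude. miR-182-5p had 316, 521 and 658 CPM at high altitude and 206, 158 and 259 CPM at low altitude. miR-200c-3p, which represses the ZEB factors and so keeps the epithelial state, had 621, 418 and 706 CPM at high altitude and 261, 298 and 267 CPM at low altitude. In these 3 miRNAs every high-altitude library was above every low-altitude one. They were 25% of the 12 members averaging 10 CPM or more, beside 5.28% of all 284. The fourth, miR-183-5p, had 104, 56.3 and 396 CPM against 62.6, 28 and 48.9 CPM and overlapped. The log2 fold changes were 1.95 ± 0.43 (SE) for conserved miR-205-5p, 1.58 ± 0.54 (SE) for miR-182-5p, 1.41 for miR-200c-3p and 2.55 ± 1.01 (SE) for miR-183-5p. Without high-altitude replicate 3, its highest library, miR-183-5p had a log2 fold change of 0.96.

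miR-141-3p, the most abundant of the list, had 5534, 2961 and 7251 CPM at high altitude and 5878, 10705 and 6869 CPM at low altitude, and the altitudes overlapped. Its log2 fold change was -0.18 ± 0.62 (SE), with an adjusted p of 1.0 by edgeR's quasi-likelihood test, and 0.05 in 1 fit over all 36 libraries and 0.23 without high-altitude replicate 2. The summed list was 7334, 8035 and 9936 CPM at high altitude and 8099, 13602 and 9071 CPM at low altitude, again with overlap. Its 12 members with a mean of at least 10 CPM had a median log2 fold change of 0.25, with 6 above and 6 below 0. miR-200b-3p, of the same family as miR-200c-3p and picked after its values were seen, had 0, 2143 and 0 CPM at high altitude and 869, 720 and 914 CPM at low altitude. It overlapped through high-altitude replicate 2, and without that library it was the 1 DE miRNA, lower at high altitude, with adjusted p of 0.00928 by edgeR's quasi-likelihood test in a range that reached 1.0 with all libraries. Conserved miR-203b-1-5p, conserved miR-203b-1-3p and conserved miR-375-3p were at 0 in all 6 libraries.

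Of the 15 higher miRNAs with no overlap, 3 came from the imprinted DLK1-DIO3 region, whose miRNAs are expressed from the maternal chromosome. They were 13% of the 23 miRNAs of the region averaging 10 CPM or more, beside 5.28% of all 284. miR-379-5p had 1331, 674 and 1263 CPM at high altitude and 258, 338 and 186 CPM at low altitude, with no overlap. miR-411a-3p had 21.8, 156 and 17.5 CPM at high altitude and 14.6, 7.93 and 8.15 CPM at low altitude. Their log2 fold changes were 2.39 ± 0.58 (SE) and 2.50 ± 0.77 (SE), and that of miR-411a-3p was 1.36 without high-altitude replicate 2, its highest library. The far more abundant arm, miR-411a-5p, had 2119, 7269 and 1138 CPM at high altitude and 1134, 2099 and 1569 CPM at low altitude and overlapped. Its log2 fold change was 1.05, or 0.41 without high-altitude replicate 2, and that of both arms summed was 1.13. miR-127-3p, the most abundant of the region, had 4001, 6688 and 4059 CPM at high altitude and 2954, 3756 and 3278 CPM at low altitude. Its altitudes did not overlap either, and its log2 fold change was 0.72 ± 0.33 (SE).

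Over all 101 listed miRNAs of the DLK1-DIO3 region, 84 had counts in lung, and 5 were higher (4.95%, beside 2.23% of all miRNAs) and 1 was lower (0.99%, beside 2.52%) at an unadjusted p under 0.05 by edgeR. Of the 23 with a mean of at least 10 CPM, 19 had a log2 fold change above 0 and 4 below, and the median was 0.82, beside -0.05 for the 284 miRNAs. The median lay between 0.87 and 0.96 under the other scalings tried. The summed level was 8352, 17770 and 6994 CPM at high altitude against 5058, 7243 and 5985 CPM at low altitude, with overlap, since low-altitude replicate 2 lay above high-altitude replicate 3, and without overlap in TMM-scaled CPM (11149 in high-altitude replicate 3, 6738 in low-altitude replicate 2).

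**Figure D2:**
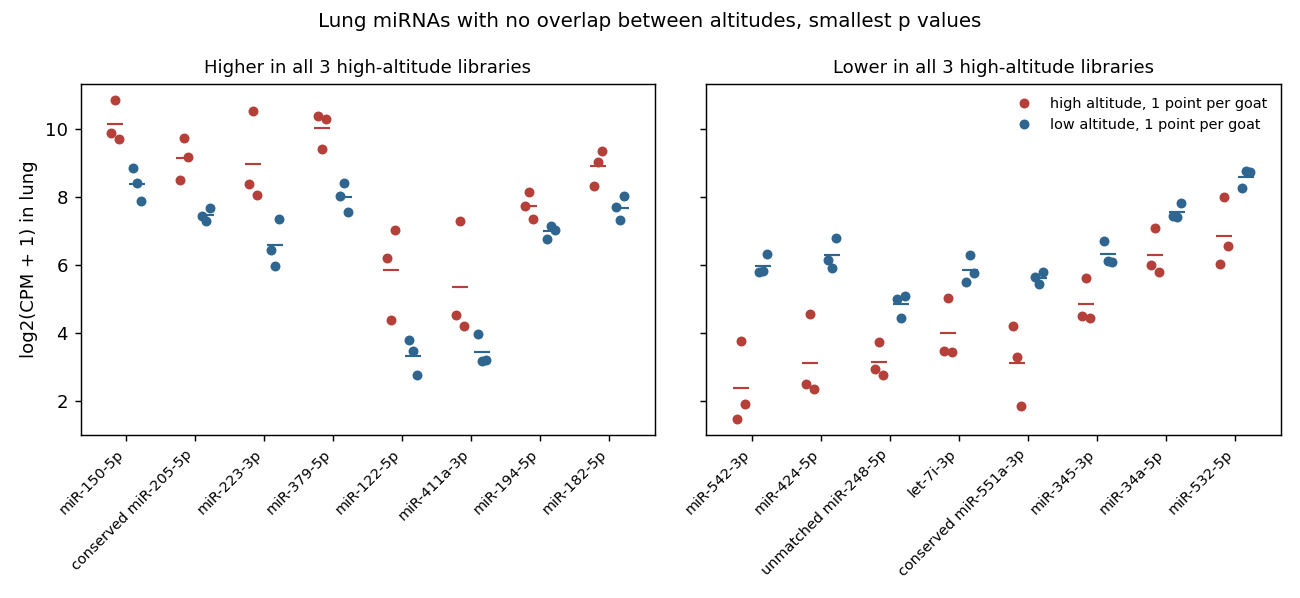
The 16 miRNAs with no overlap between altitudes and the smallest p in each direction are shown as log2(CPM + 1) in lung, with 1 point for each goat and a line at the mean of the 3 libraries of an altitude. In the panel on the right, the high-altitude points of miR-542-3p and miR-424-5p lie farthest below those of the low-altitude libraries, and the highest of their 3 high-altitude points is replicate 2.

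Of the other lower miRNAs with no overlap, let-7i-3p, the minor arm of a let-7 hairpin, had 9.94, 31.8 and 9.9 CPM at high altitude and 43.8, 77.3 and 52.9 CPM at low altitude. miR-34a-5p, a target of p53, had 63.3, 135 and 54.7 CPM at high altitude and 172, 168 and 225 CPM at low altitude. High-altitude replicate 2 was the highest of its group in both, and stayed below every low-altitude library. The log2 fold changes were -1.72 ± 0.48 (SE) for let-7i-3p and -1.08 ± 0.34 (SE) for miR-34a-5p. The major arm, let-7i-5p, had 4368, 11070 and 4018 CPM at high altitude and 7438, 11293 and 16108 CPM at low altitude and overlapped.

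miR-532-5p had 64.3, 254 and 93.5 CPM at high altitude and 303, 436 and 423 CPM at low altitude, and its log2 fold change was -1.44 ± 0.46 (SE). miR-345-3p had 21.4, 47.5 and 20.4 CPM against 104, 68.4 and 66.6 CPM, a log2 fold change of -1.34 ± 0.42 (SE). Conserved miR-551a-3p had 17.5, 8.8 and 2.55 CPM against 49, 41.8 and 54.4 CPM, a log2 fold change of -2.27 ± 0.64 (SE) that was -1.69 without high-altitude replicate 3 and -3.08 without high-altitude replicate 1. In these 3 the high-altitude libraries were all below the low-altitude ones. The last of the 8 lower miRNAs under the naming rule was miR-248-5p of the group without a miRBase match, called unmatched in the plots, with 6.63, 12.2 and 5.68 CPM against 31.1, 20.7 and 32.6 CPM. The adjusted p of all 8 lower and 8 higher miRNAs was between 0.757 and 0.832 by edgeR's quasi-likelihood test.

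Of the hypoxia-responsive miRNAs, 26 were listed and all had counts in lung, and 4 were lower (15.4%, beside 2.52% of all miRNAs) and 0 higher at an unadjusted p under 0.05 by edgeR. The 4 were miR-424-5p, miR-34a-5p, miR-21-3p and miR-181c-5p. None of the 4 overlapped between altitudes in CPM, and they were 21.1% of the 19 listed miRNAs averaging 10 CPM or more, beside 14.8% of all 284. miR-21-3p, the minor arm of the growth-linked miR-21, had 14, 48.8 and 58.5 CPM at high altitude and 82.9, 534 and 448 CPM at low altitude, and its log2 fold change was -2.78 ± 0.91 (SE), or -3.58 without high-altitude replicate 3. With TMM-scaled CPM miR-21-3p overlapped, at 93.3 in high-altitude replicate 3 and 82.7 in low-altitude replicate 1. The major arm, miR-21-5p, had 8762, 20393 and 12973 CPM against 14132, 18036 and 17598 CPM and overlapped. Over the 19 with a mean of at least 10 CPM the median log2 fold change was -0.03, which was 0.03 with RLE scaling, 0.04 with upper quartile scaling and -0.15 with library size only. miR-210-3p, the miRNA most often used as a readout of hypoxia-inducible factors, was listed in the conserved class with 0, 51.1 and 0 CPM at high altitude and 29.5, 0 and 42.2 CPM at low altitude, so that 0 occurred at both altitudes and no direction can be read.

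The list for pulmonary vascular remodelling held 48 miRNAs, of which 41 had counts in lung, with 1 higher (2.08%, beside 2.23% of all miRNAs) and 3 lower (6.25%, beside 2.52%) at an unadjusted p under 0.05 by edgeR. Its median log2 fold change over 28 miRNAs was -0.25. The most abundant, miR-143-3p of smooth muscle, was also the most abundant miRNA of lung, with 147208, 152848 and 252335 CPM at high altitude and 285055, 300283 and 262077 CPM at low altitude. The altitudes did not overlap in CPM, and high-altitude replicates 1 and 2 were lowest. With TMM-scaled CPM high-altitude replicate 3, at 402256, was above every low-altitude library. Its log2 fold change with TMM scaling was -0.27 ± 0.55 (SE), or 0.05 without high-altitude replicate 2, with an adjusted p of 1.0 by edgeR's quasi-likelihood test.

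Angiogenesis miRNAs showed no member at an unadjusted p under 0.05 by edgeR in either direction among 55 listed, 53 of them with counts in lung, and a median log2 fold change of -0.27 over 28. Among 36 fibrosis-linked miRNAs, 35 had counts, 2 were higher (5.56%) and 1 was lower (2.78%), with a median of -0.27 over 26. The let-7 family, 15 miRNAs all with counts, had 1 higher (6.67%) and 2 lower (13.3%) and a median of -0.54 over 10. Over all miRNAs these shares were 2.23% higher and 2.52% lower. The list of miR-99, miR-100 and miR-125 had 0 in either direction among 12 listed, 11 with counts, and a median of 0.61 over 8. The medians of these 4 lists kept their sign under every scaling tried, and that of the 284 was -0.05.

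The 4 other lists of lung and blood cell types had no member at an unadjusted p under 0.05 by edgeR. The ciliated list, with 8 of 8 detected, summed to 5608, 13285 and 3294 CPM at high altitude and 9656, 3129 and 8133 CPM at low altitude, with full overlap. Its median log2 fold change was -0.03, and it lay between 0.06 and 0.10 under the other scalings tried. Endothelial markers, 4 of 4 detected, summed to 13512, 38710 and 7552 CPM against 16827, 26491 and 24923 CPM, so the highest and the lowest lung library were both high-altitude ones. The median log2 fold change of the 3 endothelial miRNAs averaging 10 CPM or more was 1.15, with 2 above and 1 below 0, and 1 of the 3, miR-126-5p, was higher with no overlap (33.3%, beside 5.28% of the 284). Smooth muscle and fibroblast markers, 18 of 21 detected, summed to 191104, 178221 and 297619 CPM against 318529, 338569 and 312625 CPM, with no overlap in CPM and a median log2 fold change of -0.29 over 13 miRNAs. In TMM-scaled CPM that sum was 474445 in high-altitude replicate 3, the highest of the 6, and the altitudes overlapped. Red blood cell and platelet markers had 3 of 5 detected, both arms of miR-144 were at 0 in all 6 libraries, and the sum of 18765, 8.22 and 5061 CPM against 6360, 5555 and 7373 CPM followed conserved miR-486-5p, which was at 0 in high-altitude replicate 2.

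Markers of other tissues were also among the higher miRNAs. miR-122-5p, the main miRNA of hepatocytes, had 72.2, 19.6 and 129 CPM at high altitude and 12.7, 10 and 5.69 CPM at low altitude. miR-208b-3p, from an intron of a myosin heavy chain gene, had 12.4, 7.35 and 15.9 CPM at high altitude and 0.413, 3.04 and 2.06 CPM at low altitude. In both, no library of one altitude reached those of the other, and high-altitude replicates 1 and 3 were highest. The log2 fold changes were 3.44 ± 0.97 (SE) for miR-122-5p and 3.08 ± 0.94 (SE) for miR-208b-3p, and that of miR-122-5p was 2.52 without high-altitude replicate 3. In liver miR-122-5p had 16955, 6118 and 179917 CPM at high altitude and 26767, 53506 and 20257 CPM at low altitude, with replicate 3 far above the others at high altitude. In heart miR-208b-3p had 16711, 11647 and 11834 CPM at high altitude and 10283, 13815 and 16142 CPM at low altitude.

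The 12 striated muscle miRNAs, 9 with counts in lung, summed to 1820, 546 and 2975 CPM at high altitude and 582, 806 and 407 CPM at low altitude, and 2 were higher (16.7%, beside 2.23% of all miRNAs) and 0 lower at an unadjusted p under 0.05 by edgeR. miR-133b-5p was the most abundant, and it had the same counts as miR-133a-3p in all 36 libraries, so reads shared by these miRNAs enter that sum more than once. miR-208b-5p, conserved miR-208a-5p and miR-1-5p were at 0 in all 6 lung libraries. The 2 hepatocyte miRNAs, both arms of miR-122, summed to 72.7, 19.7 and 130 CPM at high altitude and 13, 10 and 5.69 CPM at low altitude, with 1 of the 2 higher (50%), and neither was at 0 throughout. Those of kidney and gut epithelium, 8 of 8 with counts and miR-215-5p the most abundant, summed to 493, 419 and 295 CPM against 336, 345 and 299 CPM. Their 1 higher member (12.5%, beside 2.23%) was miR-194-5p, with 211, 279 and 161 CPM against 108, 140 and 130 CPM.

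Neuronal miRNAs, 11 of 12 with counts, summed to 1574, 853 and 208 CPM at high altitude and 432, 487 and 363 CPM at low altitude, with miR-128-3p the most abundant and conserved miR-129-3p at 0 in all 6 libraries. Of these, 2 were higher at an unadjusted p under 0.05 by edgeR (16.7%, beside 2.23% of all miRNAs), miR-9-5p and miR-124a-3p. miR-9-5p had 666, 161 and 17.7 CPM at high altitude and 31.2, 17.8 and 29.3 CPM at low altitude. High-altitude replicate 1 carried most of the difference, and high-altitude replicate 3 lay just below every low-altitude library in CPM. With TMM-scaled CPM high-altitude replicate 3, at 28.3, was above low-altitude replicates 2 (16.5) and 3 (26.4). Muscle and liver markers were thus highest in high-altitude replicates 1 and 3, neuronal ones in replicate 1, and miR-150-5p, miR-223-3p and miR-411a-3p in replicate 2. The part of RNA from other tissues in any of these differences was not tested.

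Counts of 0 beside large counts were frequent. In 55 miRNAs, 0 and at least 100 counts occurred within the 3 lung libraries of 1 altitude, 39 of them at high altitude and 27 at low altitude. Several were pairs of names between which the counts moved. miR-199b-3p had 5007, 8524 and 0 CPM at high altitude and 7045, 9033 and 11163 CPM at low altitude. miR-199c-3p had 0, 0 and 5384 CPM at high altitude and 0 CPM in all 3 low-altitude libraries. Their sum was 5007, 8524 and 5384 CPM against 7045, 9033 and 11163 CPM, so the library that lacked the first held the second. In the same way let-7a-5p had 9211 CPM in low-altitude replicate 2 and 0 in the other 5 libraries, whereas let-7a-3p had 8.2 CPM there and 4693 to 13532 CPM in the others. Both names together gave 9096, 13532 and 4693 CPM at high altitude and 8225, 9219 and 12602 CPM at low altitude, which overlapped. The mature sequences given for let-7a-3p and miR-199c-3p in the study's primer list follow, with the seed in capitals. That listed for let-7a-3p carries the seed of the let-7 family, so its counts are not read here as those of another arm than let-7a-5p:
let-7a-3p: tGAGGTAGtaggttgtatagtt
miR-199c-3p: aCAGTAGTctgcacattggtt

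Several miRNAs named because a direction in lung had been stated for them were of this kind. miR-425-5p had 0, 174 and 56.3 CPM at high altitude and 0 in all 3 low-altitude libraries, at least 261-fold higher when set against a floor of 3 counts per low-altitude library. miR-425-3p had 0, 44.9 and 10.5 CPM, at least 62.9-fold higher by the same floor. Without high-altitude replicate 2, their highest library, these bounds were 95.8-fold and 17.9-fold. Both arms were at 0 in high-altitude replicate 1, so the altitudes overlapped at 0. In kidney miR-425-5p had 29.9, 40.8 and 41.3 CPM at high altitude and 0, 0 and 47.6 CPM at low altitude, so 0 also stood beside counts there. Whether a listed 0 means a low level was not tested, and these and the following bounds hold for the listed counts only. miR-191-5p, from the neighbouring hairpin of the same transcript in mammals, had 16135, 8178 and 13021 CPM against 13466, 6353 and 7930 CPM and overlapped. Conserved miR-2355-5p, with 0, 8.61 and 3.33 CPM, and conserved miR-4286-3p, with 0, 2.9 and 21.1 CPM, were also at 0 in all low-altitude libraries and in high-altitude replicate 1. They were at least 13.6-fold and 27.2-fold higher, which was 5.68-fold for conserved miR-2355-5p without high-altitude replicate 2 and 4.94-fold for conserved miR-4286-3p without high-altitude replicate 3.

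The remaining miRNAs with a stated direction each depended on few libraries. miR-136-5p of the group without a miRBase match had 16772 CPM in high-altitude replicate 2, 3 counts (0.295 CPM) in low-altitude replicate 3 and 0 elsewhere, so that 1 library held nearly all of its counts and no fold is given. miR-199c-5p had 525 CPM in high-altitude replicate 3 and 0 in the other 5 libraries. Conserved miR-2285c-1-3p had 1.45, 0 and 0.392 CPM at high altitude and 1.65, 33.9 and 30.3 CPM at low altitude, with no overlap but a narrow gap. miR-201-5p of the group without a miRBase match was at 0 at high altitude and had 0, 2.3 and 6.77 CPM at low altitude, at least 10.1-fold lower, or 3.86-fold without low-altitude replicate 3 and 15.2-fold without low-altitude replicate 1. None of these passed edgeR's quasi-likelihood test, with adjusted p of 0.832 for each; 66 miRNAs of all 1391 were at an unadjusted p under 0.05, and by DESeq2 both arms of miR-425 passed, with adjusted p of 0.0127 for miR-425-5p and 0.04 for miR-425-3p, in a range that reached 1.0 with the replicate block.

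The smallest p of the whole comparison belonged to a miRNA outside the naming rule, singled out after its values were seen. miR-91-3p of the group without a miRBase match was at 0 in all 3 high-altitude libraries and had 16, 29.7 and 7.46 CPM at low altitude. It was at least 59.4-fold lower at high altitude, with 3 counts per library as the floor, or 39.3-fold without low-altitude replicate 2. In high-altitude liver it had 0, 124 and 0 CPM and in low-altitude spleen 23.9, 60.3 and 0 CPM, so 0 stood beside counts within an altitude, and the bound holds for the listed counts only. Its adjusted p was 0.679 by edgeR's quasi-likelihood test and ran from 3.18e-07 with DESeq2 to 1.0 with the replicate block, and 4 settings passed both thresholds.

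The 10 most abundant miRNAs mostly overlapped, as did the 284, of which 57 (20.1%) had no overlap. miR-26a-5p had 170931, 238925 and 138643 CPM at high altitude and 148930, 169010 and 176553 CPM at low altitude. miR-10a-5p, from a HOX gene cluster, had 205461, 50135 and 192108 CPM against 89340, 42157 and 48314 CPM, high in high-altitude replicates 1 and 3 and near the low-altitude values in replicate 2. miR-126-3p of endothelium had 11121, 35201 and 5632 CPM against 15371, 24678 and 24709 CPM and overlapped. The other arm, miR-126-5p, had 2361, 3472 and 1911 CPM at high altitude and 1444, 1802 and 205 CPM at low altitude, with no overlap and a log2 fold change of 1.28 ± 0.74 (SE). Of the 10 most abundant, miR-143-3p and miR-125a-5p did not overlap in CPM. Both overlapped with TMM-scaled CPM, and miR-26a-5p then did not, with 174207 to 221015 at high altitude and 148484 to 159057 at low altitude. miR-27b-3p varied little, with 26606, 27221 and 26790 CPM at high altitude and 23571, 27258 and 29322 CPM at low altitude, and its log2 fold change was 0.26 ± 0.39 (SE). miR-30a-5p, miR-148a-3p, miR-10b-5p and conserved miR-181a-5p had log2 fold changes of -0.33, 0.29, 0.79 and -0.03. The sign turned for miR-30a-5p without high-altitude replicate 2 (0.01), for miR-148a-3p without high-altitude replicate 3 (-0.13) and for conserved miR-181a-5p without low-altitude replicate 3 (0.38).

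The lung altitude effect was then set against the mean effect of the other 5 tissues in 1 fit over all 36 libraries with the goat as a block. The goat was taken from altitude and replicate number, on the assumption that a number marks the same animal in every tissue. The labels give the number only. Of 1391 miRNAs, 6 (0.431%) passed both thresholds by edgeR's quasi-likelihood test. The altitude effect on miR-542-3p was lower in lung than the mean of the other tissues, with a difference of -3.25 ± 0.53 (SE) in log2 and an adjusted p of 0.00204 by the same test. Its log2 fold change was -3.51 in lung, and the mean of the other tissues was -0.23. In lung its mean was 5.69 ± 5.98 CPM (SD, n = 3) at high altitude and 62.8 ± 13.2 CPM (SD, n = 3) at low altitude. Its high-altitude libraries also lay below the low-altitude ones in liver and muscle, overlapped with them in kidney, and lay above them in heart and spleen, of which heart overlapped with TMM-scaled CPM. The other arm, miR-542-5p, and miR-424-5p of the same group had differences of -1.70 ± 0.96 and -1.41 ± 0.54 (SE), and neither passed.

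For the other 5 the lung log2 fold changes were nearer to 0 than the means of the other tissues, and 1 of the 5, miR-125a-5p, did not overlap in lung in CPM. miR-409-5p, of the DLK1-DIO3 region, had 9.94, 5.61 and 11.5 CPM in high-altitude lung and 7.85, 6.64 and 7.85 CPM in low-altitude lung, whereas in each of the other 5 tissues the high-altitude libraries were all lower than the low-altitude ones. In muscle, for example, it had 1.46, 1.18 and 1.64 CPM against 129, 114 and 133 CPM. The lung log2 fold change was 0.62 ± 0.65 (SE), the mean of the others was -5.34, and their difference was 5.99 ± 0.97 (SE) with an adjusted p of 0.00204 by edgeR's quasi-likelihood test. The more abundant other arm, miR-409-3p, averaged 83.6 CPM in lung. Its difference between lung and the other tissues was 0.94 ± 0.63 (SE) and did not pass. The mature sequence of miR-409-5p, with the seed in capitals, is shown as that of the miRNA with the largest such difference among the 6:
miR-409-5p: aGGTTACCcgagcaactttgcat

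miR-125a-5p, miR-125b-5p, miR-99a-5p and miR-100-5p are made from clusters that also hold let-7 genes. The miR-125 pair has another seed than miR-99a-5p and miR-100-5p, which repress mTOR. miR-125a-5p had 27323, 16676 and 18744 CPM in high-altitude lung and 15029, 12417 and 14488 CPM in low-altitude lung, the high-altitude libraries all above the low-altitude ones, and the order was the reverse in each of the other 5 tissues. With TMM-scaled CPM it overlapped in lung, where high-altitude replicate 2 was at 12289 and low-altitude replicate 1 at 14984, and in kidney and muscle. miR-100-5p had 7790, 2405 and 17443 CPM against 7897, 5540 and 6115 CPM in lung, and miR-99a-5p had 4426, 1222 and 6491 CPM against 4269, 2939 and 3276 CPM. Both were highest in high-altitude replicate 3 and lowest in high-altitude replicate 2, with lung log2 fold changes of 1.02 and 0.67 that were -0.11 and -0.05 without high-altitude replicate 3, and both lay below the low-altitude libraries in 4 of the other 5 tissues, muscle overlapping, and with TMM-scaled CPM miR-100-5p also overlapped in kidney. miR-125b-5p had 6382, 8155 and 7969 CPM against 5765, 5297 and 7195 CPM in lung and overlapped. The differences between lung and the other tissues were 2.54, 2.11, 3.99 and 3.37 in log2 for miR-125a-5p, miR-125b-5p, miR-99a-5p and miR-100-5p, with adjusted p of 0.00303, 0.0298, 0.0214 and 0.0274 by edgeR's quasi-likelihood test.

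**Figure D3:**
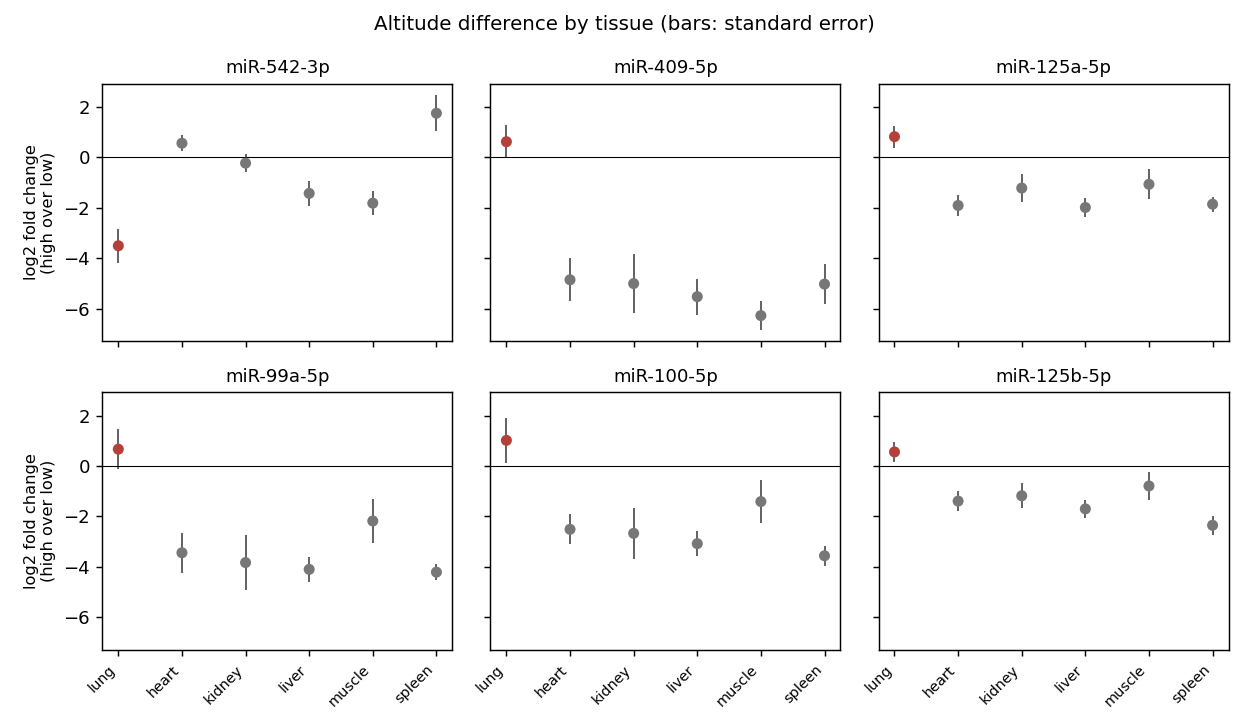
Each panel shows 1 of the 6 miRNAs whose altitude effect in lung differed from the mean of the other 5 tissues, with tissue on the x axis and the log2 fold change, high over low altitude, from a fit within that tissue on the y axis (bars: standard error; 3 libraries per altitude). The lung point (red) is the lowest at -3.51 for miR-542-3p, and the highest, between 0.56 and 1.02, for the other 5.

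With each goat left out in turn, all of its 6 tissues together, miR-542-3p passed in 6 of 6 fits, with adjusted p from 0.00145 to 0.0415. miR-409-5p passed in 4 of 6, with adjusted p of 0.0609 without low-altitude replicate 1 and 0.13 without low-altitude replicate 2. miR-125a-5p passed in 3 of 6 and did not without high-altitude replicate 3 (0.0538), low-altitude replicate 1 (0.169) or low-altitude replicate 2 (0.176). miR-99a-5p, miR-100-5p and miR-125b-5p passed in 2 of 6 each, with adjusted p of up to 0.465, 0.465 and 0.644 without low-altitude replicate 2. The differences themselves kept their sign and ran in log2 from -4.07 to -2.93 for miR-542-3p, from 5.55 to 6.29 for miR-409-5p, from 2.23 to 2.56 for miR-125a-5p, from 3.25 to 4.24 for miR-99a-5p, from 2.56 to 3.61 for miR-100-5p and from 1.72 to 2.26 for miR-125b-5p.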

How the data were processed

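Small RNA libraries were made with the Illumina TruSeq small RNA kit and sequenced on a HiSeq instrument. The submitters' processing notes name CASAVA 1.8 and Bowtie. The authors mapped reads to the goat genome without mismatches, used miRDeep2 and miRBase to identify mature miRNAs, and deposited raw read counts per mature miRNA and library. Groups were taken from the sample labels. The 6 lung libraries were tested with edgeR 4.0.16 in R 4.3.3 (TMM scaling, quasi-likelihood test, altitude as the only term, Benjamini-Hochberg adjustment over 1391 miRNAs). The comparison of lung with the other 5 tissues used all 36 libraries, with goat, tissue and tissue by altitude as terms.

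Alternatives were DESeq2 1.42.0, which gave no adjusted p for 803 miRNAs, edgeR's exact, likelihood ratio and robust tests, RLE, upper quartile and library size scaling, filters on low counts, summed arms, equal counts kept once, 1 fit over 36 libraries, the replicate number as a block, and each library left out in turn. Leaving out the 55 miRNAs with 0 beside at least 100 counts, the counts with no overlap and the bounds with each library left out, and the overlap of list sums and in single tissues with TMM-scaled CPM, were chosen after seeing the data. The edgeR quasi-likelihood and DESeq2 tests of both comparisons were first run on simulated counts with known changes. They recovered the sizes of the changes. Once zeros were placed among the simulated lung counts, edgeR's quasi-likelihood test passed no change of any size, while DESeq2 passed changes of every size. DESeq2 also passed some unchanged miRNAs, with and without such zeros. Without such zeros edgeR's quasi-likelihood test passed 3 of 1191 unchanged miRNAs in lung and 1 in the comparison with the other tissues. CPM used the sum of mature counts, and log2 values of CPM used a pseudocount of 1. Tables and exact permutation tests were made in Python 3.11.15 with NumPy 2.4.6 and pandas 2.3.3.

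The miRNAs named were, by rule, the 8 higher and 8 lower with the smallest p among those with a mean of at least 10 CPM and no overlap, the 10 most abundant, those given a direction in lung by the study, the most abundant and the smallest-p member of each of 17 lists, miR-210-3p, miR-409-5p and miR-106a-5p, and the other arm of each. The members and lists were chosen with earlier results of these data known. Mature sequences were read from the study's primer list. Coordinates were not used, since the gene table at hand is of another assembly version. Messenger RNA data and cell experiments were not analysed here.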

Additional observations from a re-analysis of the deposited data

Results flagged for a closer look

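For 6 miRNAs the altitude effect in lung differed from the mean effect in the other 5 tissues by edgeR's quasi-likelihood test over 36 libraries. The differences in log2, lung minus the others, were -3.25 for miR-542-3p, 5.99 for miR-409-5p, 2.54 for miR-125a-5p, 3.99 for miR-99a-5p, 3.37 for miR-100-5p and 2.11 for miR-125b-5p. The other arms miR-542-5p and miR-409-3p, with differences of -1.70 and 0.94, did not pass. For miR-542-3p the lung libraries themselves were separated, with every high-altitude library below every low-altitude one. Those of miR-125a-5p were separated in the reverse order in CPM and overlapped with TMM-scaled CPM, and those of the remaining 4 overlapped on both scales. For these 5, the lung log2 fold changes of 0.62, 0.82, 0.67, 1.02 and 0.56 stood beside means of -5.34, -1.61, -3.55, -2.65 and -1.48 in the other tissues. Without the goat as a block, miR-100-5p had an adjusted p of 0.0605 by the same test and the others were at most 0.0455. Groups of 3 libraries were not searched for single outlying values.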

How the results depend on the processing

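The number of DE miRNAs by edgeR's quasi-likelihood test was 0 under other scalings, filters, summed arms, equal counts kept once, robust estimates and no minimum fold change. This is no measure of stability, since this test passed no change in simulated counts with zeros. Those zeros were added to counts drawn with the dispersions of the lung data, which already hold such zeros, so the simulated setting differed from the data. There were 22 with DESeq2, 4 in 1 fit over 36 libraries, 3 with the likelihood ratio test, 2 with the exact test, 1 without the miRNAs that had 0 beside at least 100 counts (an alternative chosen after seeing the data), and 0 to 1 with a library left out. Higher miRNAs at an unadjusted p under 0.05, 31 as reported, numbered 53 in the fit over 36 libraries, 58 with DESeq2, 54 with the likelihood ratio test, 50 without the miRNAs with such zeros, and 17 to 51 with a library left out. The lower ones, 35 as reported, numbered 17 with arms summed and 23 among miRNAs averaging 10 CPM or more, where fewer miRNAs were tested, and 19 to 49 with a library left out. MiRNAs with no overlap were 25 higher and 68 lower at a mean of at least 1 CPM, 13 lower at 100 CPM, 26 higher with TMM-scaled CPM, and 20 to 44 higher and 46 to 119 lower with a library left out, which was also chosen after seeing the data. The share of variance ran from 23.5% without low-altitude replicate 2 to 38.7% without high-altitude replicate 2. Effects that differed between lung and the other tissues, 5 higher and 1 lower, numbered 16 and 16 with DESeq2, and 0 to 6 and 1 to 2 with a goat left out. List members at an unadjusted p under 0.05 numbered 26 as reported and 46 with DESeq2. Of 50 miRNAs followed in all settings, 45 kept their sign in every setting that gave a value. With a library left out, the sign turned among them for miR-200b-3p (-15.90 to 0.08), miR-106a-5p (-0.91 to 0.17), miR-100-5p (-0.11 to 1.53), miR-99a-5p (-0.05 to 1.17) and conserved miR-106a-5p (-1.06 to 0.25). It turned without high-altitude replicate 3 in the first 4 of these, in miR-200b-3p also without high-altitude replicate 1, and without low-altitude replicate 3 in the last. Over all 114 miRNAs named, other arms included, it turned in 32, of which 30 had a log2 fold change within 1 of 0. miR-199c-3p and miR-199c-5p without high-altitude replicate 3, miR-136-5p without a miRBase match without high-altitude replicate 2, and miR-450-3p without low-altitude replicate 2 had no count above 3 left. The causes were not tested. Below about 0.3 CPM, 3 counts, depth limits any comparison.

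The replicate numbers do not pair the goats of different populations. Deviations of same-numbered libraries had correlations across 252 miRNAs of 0.0651, -0.00899 and -0.132, and not every library correlated best with its own number. With the replicate block, 0 DE miRNAs were found, 18 higher and 28 lower miRNAs were at an unadjusted p under 0.05, and conserved miR-106a-5p had a log2 fold change of 0.32.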

Other observations

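Further miRNAs with no overlap between altitudes in lung, picked after their values were seen, included both arms of miR-455, which lies in an intron of a collagen gene. miR-455-5p had 26.4, 42.8 and 32.2 CPM at high altitude and 78.6, 89 and 101 CPM at low altitude. miR-455-3p had 93.3, 75.1 and 42.8 CPM against 119, 110 and 114 CPM. Both arms were below the low-altitude values in all 3 high-altitude libraries.

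The miR-29 family, which represses collagen messenger RNAs, was not uniform. miR-29a-3p had 3517, 5408 and 3881 CPM at high altitude and 3099, 3279 and 3097 CPM at low altitude, with every high-altitude library above. miR-29c-3p had 15.3, 19 and 7.06 CPM at high altitude and 36, 23.9 and 27.1 CPM at low altitude, with every high-altitude library below.

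miR-101-5p met the same count only through a narrow gap: it had 0, 0.0967 and 0 CPM at high altitude and 0.206, 66.2 and 0.0982 CPM at low altitude. Low-altitude replicate 2 held nearly all of its counts. The major arm, miR-101-3p, had 2380, 5053 and 2990 CPM against 5166, 5861 and 5570 CPM and did not overlap either.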
